A study of Mus musculus with 8 samples.

Results

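The genes described here are 46 genes of the cell cycle and of DNA replication, picked by symbol from textbook roles in proliferation and taken from 8 expression arrays of cultured mouse hippocampal neurons. A probe belongs to the set when its transcript accession maps through RefSeq to one of the 46 symbols. All 46 genes had a probe, with 64 of the 39429 probes on the array, which cover 20144 genes with a symbol, and 43 genes were bright enough to be tested among 21113 features in all. No measured value was used as a rule for the choice, but the symbols were chosen with earlier results of these data known. For that reason no test was run over the set.

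Nr4a1 cultures were dissociated hippocampal neurons grown for 10 days, infected with a lentivirus carrying Flag-tagged Nr4a1, a nuclear receptor and immediate early gene, and kept for 6 more days. GFP cultures were grown alike and received a lentivirus carrying GFP, so both groups were infected cultures and no uninfected culture was analysed here. Each group had 4 arrays, joined by the labels into 4 pairs of 1 Nr4a1 and 1 GFP array, and pair 4 was the whole of batch 2. The labels name no promoter, mouse strain or age, and nothing says that replicates came from separate animals, so the p-values measure only the spread between these samples. Each array compared RNA of a culture, labelled with Cy5, with a commercial Universal Mouse Reference labelled with Cy3, so each level is a log2 ratio of culture over reference. All GFP arrays lay on slide 1, Nr4a1 replicates 1 to 3 on slide 2 and Nr4a1 replicate 4 on slide 3. No slide carried both groups, so a slide effect common to a group's arrays cannot be told apart from the transgene.

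A dividing cell commits to division in G1, when D-type cyclins with CDK4 or CDK6 and cyclin E with CDK2 release E2F factors from the retinoblastoma protein. E2F target genes then license and copy the DNA, and a later wave of genes, held down between divisions by the DREAM complex and raised by B-MYB and FOXM1, builds the mitotic spindle, checks kinetochore attachment and drives cytokinesis. Neurons have left the cycle for good, whereas the glia and progenitors that accompany them in culture can divide.

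The cell cycle genes were more often higher than lower in Nr4a1 cultures. Of the 43 tested genes, 24 were higher at an adjusted p under 0.05 (limma), 1 was lower and 18 did not pass. That is 55.8% higher, where 12.8% of all 21113 features were higher and 11.5% lower (24.4% in either direction). The median difference over the 43 genes was 0.22 on the log2 scale, against -0.0034 over all features. By pair the median was 0.14, 0.35, 0.25 and 0.21 in pairs 1 to 4, and 34 genes had a positive difference in all 4 pairs, as did 21.2% of all features. The 4 Nr4a1 arrays lay wholly above the 4 GFP arrays for 26 of the genes, or 60.5%, against 12.7% of all features, and no cell cycle gene had its arrays apart the other way. Among the 42 genes measured on all 8 arrays, 23 were higher. With 4 arrays a group, the number of arrays limits the precision.

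**Figure D1:**
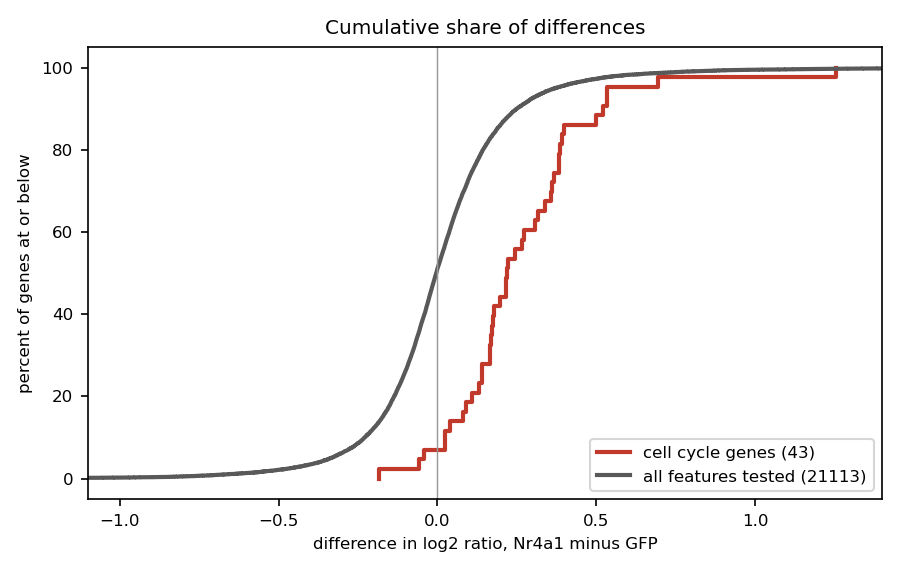
Cumulative share of genes (vertical axis, percent) at or below a given difference in log2 ratio, Nr4a1 minus GFP (horizontal axis), for the 43 tested cell cycle genes (red) and all 21113 features (grey); the view ends at -1.1 and 1.4. The red curve lies to the right of the grey one, with medians of 0.22 and -0.0034.

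The size of the changes was small for most genes. The 24 rises ran from 0.22 to 1.26 on the log2 scale, only Rrm2 reached 2-fold, and 22 of the 24 were under 1.5-fold. Levels stayed far below the reference, which is pooled from cell lines. The median log2 ratio of the 43 genes was -3.11, -3.06, -3.02 and -3.06 on Nr4a1 arrays 1 to 4, against -3.27, -3.43, -3.24 and -3.23 on GFP arrays 1 to 4. On all 8 arrays 42 of the 43 genes were below the reference, and the exception was Ccnd2. Background-corrected Cy5 signals of the tested genes include an added offset of 50. They ran from 98.0 to 26364 on Nr4a1 arrays and from 83.4 to 30163 on GFP arrays. The probe sets part of the signal, so genes are not ranked by level.

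A pair of settings ended most or all of the calls. With the pair term kept and slide added as a random block, 0 of the 43 genes and 8 features of 21113 were called higher, at an estimated correlation of 0.86 within slides. With slide as a random block and no pair term the correlation was -0.023 and 24 genes were called higher. No slide carried both groups, so neither correlation measures a slide effect shared by all arrays of a group. With spots of non-uniform background on all arrays kept in the background correction, 2 genes (Rrm2 and Ccnd1) and 130 features were called higher. Nr4a1 replicate 2 held 37 such spots, and each other array held 10 or fewer. Within batch 1, which holds pairs 1 to 3, 20 genes were higher and 0 lower, with a median difference of 0.24. Batch 2 holds 1 pair and gives no test of its own.

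**Figure D2:**
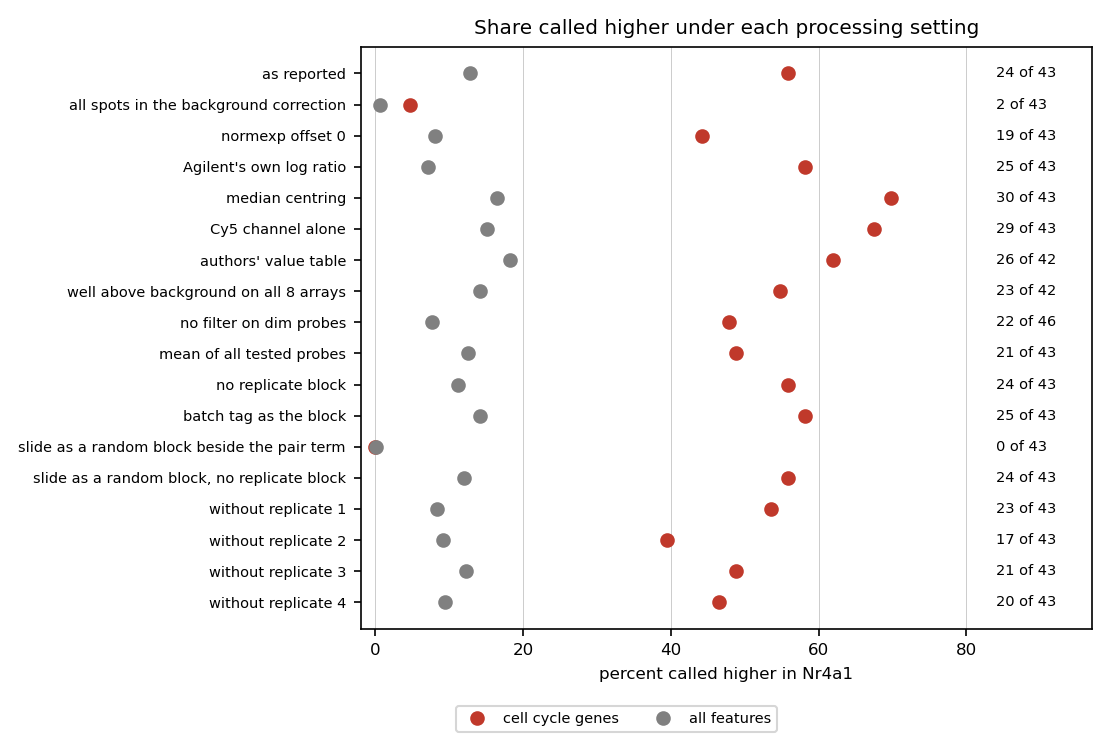
Percent of genes called higher in Nr4a1 cultures (horizontal axis) under each processing setting (rows), for the cell cycle genes (red) and all features (grey), with the count of cell cycle genes at the right. The share of cell cycle genes is above that of all features in each setting except the one with both the pair term and slide as a random block, where 0 of 43 were called.

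Cell type markers were read beside these genes, against the 12.8% of all features higher and 11.5% lower. Oligodendrocyte lineage, neural progenitor and astrocyte lists had larger shares higher, while 2 of 12 neuron, 0 of 8 microglia and 1 of 11 vascular and mesenchymal markers were higher. Neuron markers, all 12 measured on all 8 arrays, had 2 genes higher (Nefm 0.30, Eno2 0.29) and 1 lower (Syt1, -0.25), 25% called where 24.4% of all features were, with a median of -0.073. Their summed Cy5 signal was 439114 to 483613 on Nr4a1 arrays and 464805 to 491445 on GFP arrays. Nefm, a neurofilament gene, turned to -0.21, -0.014 and -0.25 when all spots entered the background correction, at an offset of 0 and in the scanner software's own log ratio. Its call was lost without pair 1 or 4 (0.31 and 0.21, adjusted p of 0.0565 and 0.0635), and that of Syt1 without pair 1 or 3 (-0.19 and -0.20, adjusted p of 0.155 and 0.122). Oligodendrocyte lineage markers had 6 of 11 tested genes higher and 2 lower, with a summed signal of 38851 to 56429 on Nr4a1 arrays and 20189 to 29161 on GFP arrays. Among them Pdgfra, the receptor of dividing precursors, rose by 0.76, whereas Mbp, a late myelin protein, fell by 0.94. Mag, another myelin protein, was called lower at -0.21, but the direction turned in the Cy5 channel alone, to 0.17, and the call was lost without pair 1, 2 or 3 (-0.20, -0.16 and -0.22, adjusted p of 0.124, 0.21 and 0.0736). Gpr17, a receptor of committed precursors, was well above background on 4 of 4 Nr4a1 arrays and 1 of 4 GFP arrays, so it entered the test through the Nr4a1 arrays and its difference of 0.97 is set against a GFP level near background. Without it 5 of 10 genes of the list were higher. Enpp6, a marker of newly formed oligodendrocytes, was well above background on 0 arrays. Neural progenitor markers had 6 of 11 tested genes higher and 0 lower, with a summed signal of 116616 to 132639 on Nr4a1 arrays and 94146 to 100665 on GFP arrays. Nes rose by 0.65 and Vim by 0.61, both encoding intermediate filaments of progenitors and reactive glia, while Eomes, of intermediate progenitors, was well above background on 0 arrays. The part these cells have in the rise of the cell cycle genes was not tested, and in RNA of whole cultures more cells of a type cannot be told apart from more RNA per cell.

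Astrocyte markers had 4 of 12 genes higher and 0 lower, led by Aqp4 (0.43) and Slc7a10 (0.40), and their summed signal overlapped, at 237124 to 264391 on Nr4a1 arrays and 199226 to 248271 on GFP arrays. The rise of Aqp4, an astrocyte water channel, turned to -0.21 when all spots entered the background correction and to -0.10 with the scanner software's own log ratio. Microglia markers had 0 of 8 tested genes higher and 1 lower, Csf1r, a colony-stimulating factor receptor, at -0.75. Their summed signal was 20828 to 22716 on Nr4a1 arrays and 23349 to 25693 on GFP arrays, and P2ry12 and C1qc were well above background on 0 arrays. Vascular and mesenchymal markers had 1 of 11 tested genes higher (Flt1, 0.58) and 2 lower (Lum, -1.0, and Dcn, -0.59), with summed signals of 12438 to 13762 on Nr4a1 arrays and 12183 to 13491 on GFP arrays, and Cdh5 was well above background on 0 arrays.

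The delivered gene itself did not pass with all 4 pairs. Nr4a1 had log2 ratios of -1.32, -2.49, -1.20 and -2.37 on Nr4a1 arrays 1 to 4, against -2.06, -2.12, -1.90 and -2.49 on GFP arrays 1 to 4. It was higher on 2 Nr4a1 arrays and overlapped with the GFP arrays on the other two, with a difference of 0.30 ± 0.15 (SE, adjusted p = 0.196) that was positive in 3 of 4 pairs. By pair the difference of Nr4a1 was 0.73, -0.36, 0.70 and 0.12 in pairs 1 to 4. The medians of the 43 cell cycle genes were 0.14, 0.35, 0.25 and 0.21 in the same pairs. A relation between them was not tested. Nr4a1 passed without pair 2, at 0.52 (adjusted p = 0.00645), and with median centring, at 0.40 (adjusted p = 0.0163), where the median over all features was 0.059. Its difference was 0.15 without pair 1 and 0.16 without pair 3. The sources used here do not say whether its probe matches the delivered sequence.

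In the account of single genes below, each difference is a log2 difference, Nr4a1 minus GFP, with its SE from limma and its adjusted p. Among the 6 G1 and G1/S regulators, Ccnd1 and E2f1 rose and Ccnd2 fell. Ccnd1, the D-type cyclin that responds to mitogens (chr7:144929931-144939831 in GRCm38.p6), had log2 ratios of -0.35, -0.28, -0.28 and -0.45 on Nr4a1 arrays, against -0.83, -0.84, -0.78 and -1.0 on GFP arrays. The groups did not overlap, and the difference was 0.52 ± 0.06 (adjusted p = 0.000147), 1.44-fold. E2f1, an activating E2F factor (chr2:154559400-154569892), had -1.98, -1.97, -2.06 and -1.87 on Nr4a1 arrays, against -2.32, -2.28, -2.19 and -2.32 on GFP arrays. All Nr4a1 arrays were above all GFP arrays, by 0.31 ± 0.07 on average (adjusted p = 0.0079).

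Ccnd2, another D-type cyclin (chr6:127125162-127152188), was the 1 gene of the 43 tested that was called lower. Its log2 ratios were 1.50, 1.62, 1.60 and 1.21 on Nr4a1 arrays, against 1.60, 1.86, 1.75 and 1.47 on GFP arrays, so the groups overlapped while every Nr4a1 array was below its own pair partner. The difference was -0.18 ± 0.06 (adjusted p = 0.0478), and the call was lost in 13 of 17 alternative settings. Leaving out any 1 pair ended it, with differences of -0.21, -0.17, -0.19 and -0.16 and adjusted p of 0.0641, 0.191, 0.0788 and 0.142 without pairs 1, 2, 3 and 4. Cdk4 and Cdk2, the kinases of G1 and S phase entry, and Ccne1, the partner of CDK2, did not pass, at 0.039 ± 0.07, 0.11 ± 0.06 and -0.059 ± 0.06.

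**Figure D3:**
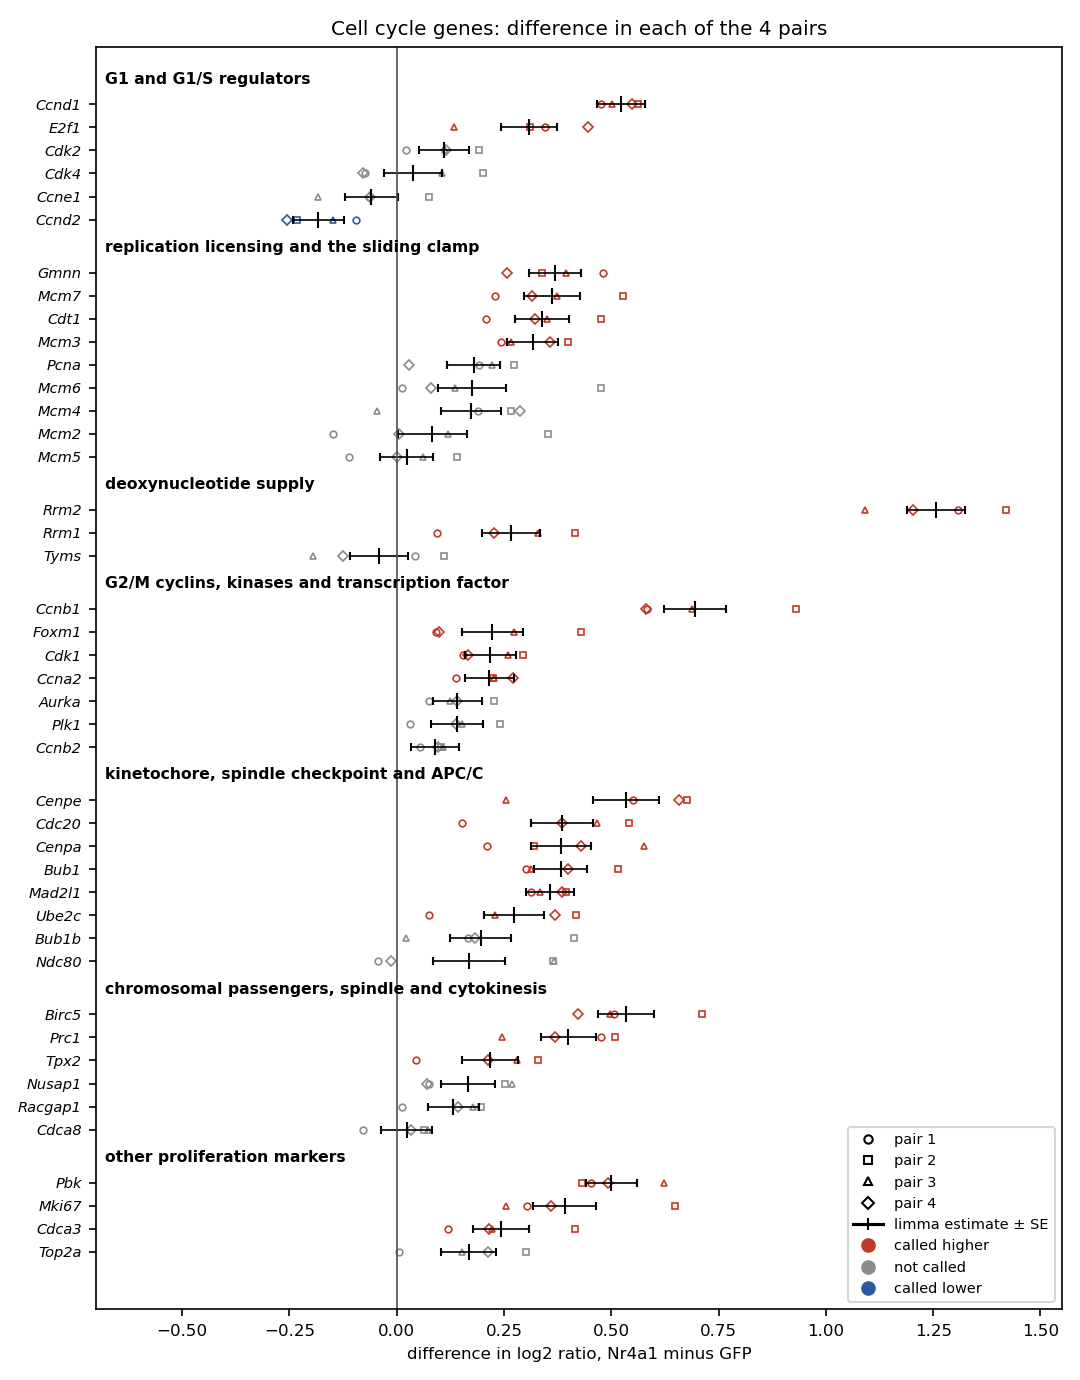
Difference in log2 ratio, Nr4a1 minus GFP (horizontal axis), for each of the 43 tested cell cycle genes (rows, by phase), in each of the 4 pairs (symbols), with the limma estimate and its SE (black). Red genes were called higher, grey genes not called and the blue gene, Ccnd2, lower; Rrm2 stands farthest right at 1.26.

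Replication licensing loads the MCM2 to MCM7 helicase onto origins once a cycle, through CDC6 and CDT1, and geminin blocks CDT1 afterwards. Of 9 tested licensing and clamp genes 4 rose and 0 fell, with a median difference of 0.18. Gmnn, which encodes geminin (chr13:24751845-24761937), had log2 ratios of -3.57, -3.69, -3.56 and -3.44 on Nr4a1 arrays, against -4.05, -4.02, -3.95 and -3.70 on GFP arrays. Its groups did not overlap, although Nr4a1 replicate 2 and GFP replicate 4 nearly met, and it rose by 0.37 ± 0.06 (adjusted p = 0.00204). Mcm7 (chr5:138164583-138172111) had -3.39, -3.16, -3.12 and -3.31 on Nr4a1 arrays, against -3.62, -3.68, -3.50 and -3.63 on GFP arrays. It rose by 0.36 ± 0.07 (adjusted p = 0.00322) with no overlap. Cdt1 rose by 0.34 ± 0.06 (adjusted p = 0.00383) and Mcm3 by 0.32 ± 0.06 (adjusted p = 0.00384), each in 4 of 4 pairs.

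The other helicase genes and the clamp did not pass. Mcm2 (chr6:88883474-88898780) had log2 ratios of -3.06, -2.80, -2.84 and -3.02 on Nr4a1 arrays, against -2.91, -3.15, -2.96 and -3.02 on GFP arrays. These overlapped, and the difference was 0.082 ± 0.08 (adjusted p = 0.501). Mcm4, Mcm5 and Mcm6 differed by 0.17 ± 0.07, 0.023 ± 0.06 and 0.18 ± 0.08. Mcm4 passed without pair 3, at 0.25 (adjusted p = 0.03). Pcna, the sliding clamp that holds polymerases on DNA (chr2:132249286-132253180), had -2.48, -2.47, -2.40 and -2.41 on Nr4a1 arrays, against -2.67, -2.74, -2.63 and -2.44 on GFP arrays. The overlap came from GFP replicate 4, the difference was 0.18 ± 0.06 (adjusted p = 0.0638), and without pair 4 it was 0.23 (adjusted p = 0.0452). Cdc6 was too dim to test, with 1 of 4 Nr4a1 arrays and 0 of 4 GFP arrays well above background, and no fold is given.

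Promoters of the genes that rose are shown where the gene is described, to set the letters known from E2F and DREAM targets beside the values. They are RefSeq promoter windows of GRCm38.p6, from 250 bases before to 50 after the transcript start, 5′ to 3′ on the gene's strand. Motifs were searched on both strands: CCAAT (the NF-Y box), TTTGAA or TTCGAA (CHR, the cell cycle genes homology region bound by DREAM and B-MYB complexes), TTTGGCGC or TTTCCCGC (E2F) and AAAGGTCA (NBRE, the monomer element of NR4A receptors). TTCGAA reads the same on both strands, and no motif contains another. The genes shown are, for CCAAT, CHR and E2F in turn, the 2 called genes with the largest rise that hold the motif and have 1 promoter in the table, a choice made after their values were seen. Capitals mark every match. Cdt1 lies at chr8:122567765-122568064 on the + strand and Mcm3 at chr1:20820263-20820562 on the - strand.
Cdt1: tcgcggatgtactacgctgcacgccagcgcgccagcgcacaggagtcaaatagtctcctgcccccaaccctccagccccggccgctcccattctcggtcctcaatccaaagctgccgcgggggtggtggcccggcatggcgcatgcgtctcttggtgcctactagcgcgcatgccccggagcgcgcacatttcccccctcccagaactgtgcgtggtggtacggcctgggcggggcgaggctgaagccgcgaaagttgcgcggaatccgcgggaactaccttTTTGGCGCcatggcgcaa
Mcm3: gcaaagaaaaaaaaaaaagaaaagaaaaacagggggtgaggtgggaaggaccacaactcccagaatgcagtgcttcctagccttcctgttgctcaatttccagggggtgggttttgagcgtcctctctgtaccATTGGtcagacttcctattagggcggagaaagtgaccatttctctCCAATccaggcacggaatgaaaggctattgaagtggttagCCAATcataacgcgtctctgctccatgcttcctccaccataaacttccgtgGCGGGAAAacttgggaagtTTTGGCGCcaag

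Of the 3 genes of deoxynucleotide supply, which makes the building blocks of DNA, 2 rose and 0 fell. Rrm2, the regulated small subunit of ribonucleotide reductase, rose the most among the 43 tested genes of the set (chr12:24708254-24714146). It had log2 ratios of -2.87, -2.78, -2.87 and -2.89 on Nr4a1 arrays, against -4.18, -4.20, -3.96 and -4.09 on GFP arrays. The groups stood more than 1 log2 unit apart, with a difference of 1.26 ± 0.07 (adjusted p = 1.68e-06), 2.39-fold, positive in 4 of 4 pairs. Rrm1, the large subunit (chr7:102441695-102469771), had -3.56, -3.37, -3.33 and -3.50 on Nr4a1 arrays, against -3.65, -3.78, -3.66 and -3.73 on GFP arrays. It rose by 0.27 ± 0.07 (adjusted p = 0.0179), a call lost without pair 2 (0.22, adjusted p = 0.0988) and without pair 3 (0.24, adjusted p = 0.0561). Tyms, thymidylate synthase, did not pass at -0.042 ± 0.07 (adjusted p = 0.7). The promoter of Rrm2, at chr12:24708004-24708303 on the + strand, is shown for its CCAAT box.
Rrm2: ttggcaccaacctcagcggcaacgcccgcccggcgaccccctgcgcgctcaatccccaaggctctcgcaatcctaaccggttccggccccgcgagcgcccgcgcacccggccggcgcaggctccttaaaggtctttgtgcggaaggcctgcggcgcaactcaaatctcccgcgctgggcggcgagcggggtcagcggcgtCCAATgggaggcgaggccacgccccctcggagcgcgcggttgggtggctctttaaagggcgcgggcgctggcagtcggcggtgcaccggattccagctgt

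**Figure D4:**
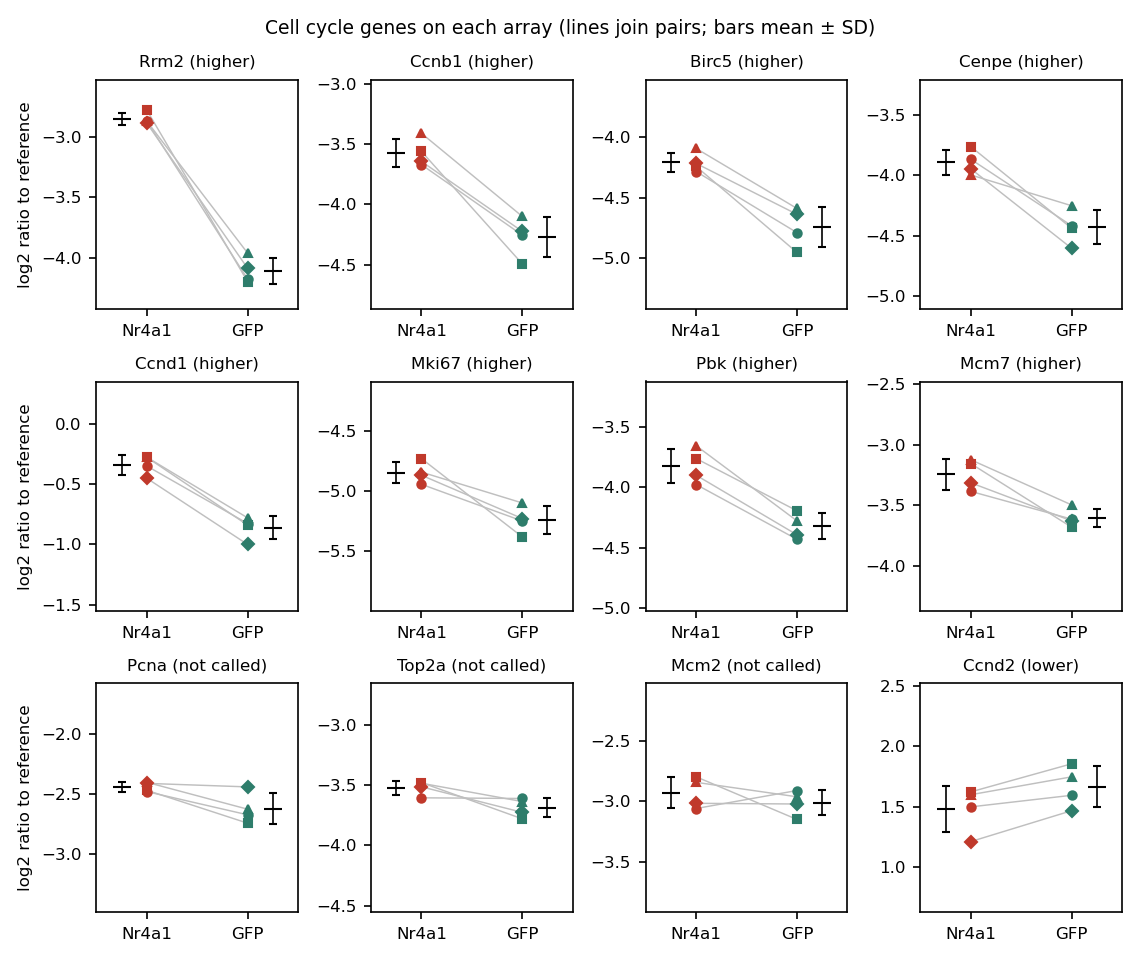
Log2 ratio of culture over reference (vertical axis; each panel has its own range) on the 4 Nr4a1 (red) and 4 GFP (green) arrays for 12 cell cycle genes, with lines joining pairs and bars for the mean ± SD. The first 8 panels show genes whose groups do not overlap, Pcna and Mcm2 overlap, Top2a has its groups just apart without a call, and Ccnd2 is lower in every pair.

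Entry into mitosis rests on cyclins A and B with CDK1, and on the kinases PLK1 and Aurora A. Of the 7 G2/M genes 4 rose and 0 fell, with a median of 0.22, and 1 to 3 were called with a pair left out. Ccnb1, which encodes cyclin B1 (chr13:100778739-100786486), had log2 ratios of -3.67, -3.56, -3.41 and -3.65 on Nr4a1 arrays, against -4.26, -4.49, -4.10 and -4.22 on GFP arrays. The groups did not overlap, and it rose by 0.70 ± 0.07 (adjusted p = 0.000108), 1.62-fold. Its 2 other probes gave 0.26 and 0.35, in the same direction and smaller. Ccnb1's promoter, at chr13:100786437-100786736 on the - strand, holds 2 CCAAT boxes.
Ccnb1: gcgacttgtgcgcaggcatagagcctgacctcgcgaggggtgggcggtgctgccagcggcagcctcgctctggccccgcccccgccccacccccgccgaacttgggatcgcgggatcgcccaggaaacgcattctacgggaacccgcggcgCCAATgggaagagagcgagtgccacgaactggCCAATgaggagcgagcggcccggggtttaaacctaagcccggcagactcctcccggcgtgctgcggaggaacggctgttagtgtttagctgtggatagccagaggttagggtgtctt

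Foxm1, the forkhead factor that drives G2/M genes (chr6:128362994-128375886), had log2 ratios of -2.42, -2.20, -2.24 and -2.35 on Nr4a1 arrays, against -2.51, -2.63, -2.52 and -2.44 on GFP arrays. Nr4a1 replicate 1 lay just above GFP replicate 4, and the rise of 0.22 ± 0.07 (adjusted p = 0.0458) was near the threshold. It did not pass without pair 1 (0.27, adjusted p = 0.0568), pair 2 (0.15, adjusted p = 0.236), pair 3 (0.21, adjusted p = 0.116) or pair 4 (0.26, adjusted p = 0.056). Ccna2, cyclin A2, rose by 0.22 ± 0.06 (adjusted p = 0.0222), and this did not hold without pair 2, 3 or 4 (adjusted p of 0.092, 0.056 and 0.075, at 0.20 to 0.21). Cdk1, the mitotic kinase, rose by 0.22 ± 0.06 (adjusted p = 0.0228) with groups that overlapped. Its call was lost without pair 2 (0.19, adjusted p = 0.123) or pair 3 (0.20, adjusted p = 0.0653), and its other tested probe gave -0.12 ± 0.07. Plk1, Aurka and Ccnb2 (cyclin B2) did not pass, at 0.14 ± 0.06, 0.14 ± 0.06 and 0.090 ± 0.06, although each was positive in 4 of 4 pairs.

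Kinetochore, spindle checkpoint and APC/C genes had 6 of 8 tested genes higher and 0 lower, with a median of 0.37. The checkpoint proteins BUB1, BUBR1 and MAD2 hold back CDC20, which activates the APC/C ubiquitin ligase once chromosomes are attached. Cenpe, a kinetochore motor (chr3:135212563-135273540), had log2 ratios of -3.87, -3.76, -4.00 and -3.95 on Nr4a1 arrays, against -4.42, -4.44, -4.25 and -4.60 on GFP arrays. It rose by 0.53 ± 0.08 (adjusted p = 0.000875), with no overlap and the smallest pair difference in pair 3. Cdc20 (chr4:118432901-118437343) had -3.69, -3.47, -3.38 and -3.58 on Nr4a1 arrays, against -3.84, -4.01, -3.85 and -3.96 on GFP arrays. It rose by 0.39 ± 0.07 (adjusted p = 0.0039), again with no overlap. The promoter of Cdc20, at chr4:118437294-118437593 on the - strand, holds a CHR between 2 CCAAT boxes.
Cdc20: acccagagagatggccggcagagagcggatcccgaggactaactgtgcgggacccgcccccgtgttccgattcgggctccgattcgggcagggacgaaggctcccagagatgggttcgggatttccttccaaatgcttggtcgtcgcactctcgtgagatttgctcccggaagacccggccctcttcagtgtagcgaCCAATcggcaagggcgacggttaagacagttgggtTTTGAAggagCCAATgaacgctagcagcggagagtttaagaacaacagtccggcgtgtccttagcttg

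Bub1, a checkpoint kinase, had mean log2 ratios of -4.29 ± 0.11 on Nr4a1 arrays and -4.67 ± 0.16 on GFP arrays (SD, n = 4 each) and is counted among the 6. It was well above background on 4 of 4 Nr4a1 arrays and 1 of 4 GFP arrays, so it entered the test through the Nr4a1 arrays, and without it 5 of 7 genes of the list were higher. Cenpa, the histone variant of centromeres, rose by 0.38 ± 0.07 (adjusted p = 0.00347). Mad2l1, which encodes MAD2, rose by 0.36 ± 0.06 (adjusted p = 0.00152) on its brightest probe, while its 2 other probes gave 0.055 and 0.14. Ube2c, the E2 enzyme of the APC/C, rose by 0.27 ± 0.07 (adjusted p = 0.0186) with 0.088 on its other probe, and its call was lost without pair 2 (0.22, adjusted p = 0.0955) or pair 4 (0.24, adjusted p = 0.0757). Bub1b, which encodes BUBR1, and Ndc80, a microtubule-binding kinetochore subunit, did not pass at 0.20 ± 0.07 and 0.17 ± 0.08, and Bub1b passed without pair 3 (0.25, adjusted p = 0.0423). Cenpf was well above background on 1 array in each group and was not tested.

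Chromosomal passengers, spindle and cytokinesis genes had 3 of 6 tested genes higher and 0 lower, with a median of 0.19. Birc5, which encodes the passenger subunit survivin (chr11:117849237-117855743), had log2 ratios of -4.28, -4.24, -4.09 and -4.22 on Nr4a1 arrays, against -4.79, -4.95, -4.59 and -4.64 on GFP arrays. The groups did not overlap, and it rose by 0.53 ± 0.07 (adjusted p = 0.000304), with 0.25 and 0.26 on its 2 other probes. Prc1, the bundler of antiparallel microtubules in the midzone (chr7:80294445-80316259), had -2.23, -2.24, -2.24 and -2.22 on Nr4a1 arrays, against -2.71, -2.75, -2.49 and -2.59 on GFP arrays. It rose by 0.40 ± 0.06 (adjusted p = 0.00171), and the Nr4a1 arrays were the tighter group (SD 0.01, against 0.12 for GFP, n = 4 each). Tpx2, an Aurora A activator, rose by 0.22 ± 0.07 (adjusted p = 0.0363), a call lost without pair 2, 3 or 4 (0.18, 0.20 and 0.22, adjusted p of 0.171, 0.101 and 0.09). The other tested probe of Tpx2 gave 0.13 ± 0.09.

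The rest of that group did not pass. Nusap1 and Racgap1, which act on spindle microtubules and the cleavage furrow, differed by 0.17 ± 0.06 and 0.13 ± 0.06, and Cdca8, the passenger subunit borealin, by 0.023 ± 0.06. Aurkb, the kinase of the passenger complex, was well above background on 2 of 4 Nr4a1 arrays and 0 of 4 GFP arrays and was not tested. Its log2 ratios were -2.05, -2.45, -1.19 and -2.07 on Nr4a1 arrays, against -1.94, -2.46, -2.22 and -1.91 on GFP arrays. Nr4a1 replicate 3 stood apart, and the other arrays of the groups overlapped.

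Of the 4 other proliferation markers 3 rose and 0 fell, with a median of 0.32. Mki67, which encodes the Ki-67 antigen of cycling cells (chr7:135689784-135716450), had log2 ratios of -4.94, -4.73, -4.84 and -4.87 on Nr4a1 arrays, against -5.25, -5.38, -5.10 and -5.23 on GFP arrays. The groups did not overlap, and it rose by 0.39 ± 0.07 (adjusted p = 0.00399), with 0.47 on its other probe. Pbk, a mitotic kinase (chr14:65805911-65817822), had -3.98, -3.76, -3.65 and -3.90 on Nr4a1 arrays, against -4.43, -4.19, -4.28 and -4.39 on GFP arrays, and rose by 0.50 ± 0.06 (adjusted p = 0.000279). Cdca3, a trigger of mitotic entry, rose by 0.24 ± 0.07 (adjusted p = 0.0228), which did not hold without pair 2 (0.19, adjusted p = 0.138) or pair 4 (0.25, adjusted p = 0.0573). Top2a, the topoisomerase that untangles sister chromatids (chr11:98992947-99024199), had -3.61, -3.48, -3.49 and -3.51 on Nr4a1 arrays, against -3.61, -3.78, -3.64 and -3.73 on GFP arrays. Nr4a1 replicate 1 lay level with GFP replicate 1 at this precision, and the difference of 0.17 ± 0.07 did not pass (adjusted p = 0.0914). The Mki67 promoter, at chr7:135716330-135716629 on the - strand, is shown for its 2 CHR elements.
Mki67: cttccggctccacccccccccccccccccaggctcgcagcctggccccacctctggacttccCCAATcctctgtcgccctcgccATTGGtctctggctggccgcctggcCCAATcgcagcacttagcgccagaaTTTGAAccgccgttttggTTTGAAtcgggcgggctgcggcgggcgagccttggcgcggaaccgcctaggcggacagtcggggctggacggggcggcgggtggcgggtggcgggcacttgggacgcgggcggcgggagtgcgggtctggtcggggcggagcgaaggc

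The motifs were then counted over all promoters. Of the 46 genes 37 had an entry in the promoter table, with 39 promoters. CCAAT was in 74.4% of these promoters, against 37.4% of 32851 promoters of all genes, and a CHR was in 51.3%, against 19.2%. Both together were in 48.7%, against 7.52%. An E2F match was in 17.9%, against 1.56%, and its 7 genes were Cdk2 and 6 of the 8 licensing genes with a promoter. A CHR was in 7 of 9 kinetochore and checkpoint genes, 4 of 5 G2/M genes and 2 of 8 licensing genes, and in 0 of 4 G1 genes. Among genes called higher 14 of 18 held CCAAT, 9 held a CHR and 3 an E2F match, and among those not called 12 of 17, 9 and 3 did. The NBRE was in 0 of the 39 promoters and in 1.51% of all promoters. At that share 39 promoters are too few to show a lack of the element. A match is a run of letters in this window, and no binding was measured.

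Other genes of the cell cycle were read from lists that are not part of the 46, against the 12.8% of all features higher and 11.5% lower. CDK inhibitors, which brake the cyclin-dependent kinases, had 6 of 8 genes higher and 0 lower, with a median of 0.39. Cdkn2a, the locus of p16 and ARF, rose by 0.64 ± 0.06 (adjusted p = 5.15e-05) and Cdkn2c, p18, by 0.55 ± 0.08 (adjusted p = 0.000851). Genes of RB, E2F and DREAM had 7 of 17 higher and 0 lower, with Rb1, the retinoblastoma gene, at 0.69 ± 0.07 and Tfdp2, an E2F partner, at 0.64 ± 0.10. Further cyclins and CDKs had 5 of 10 higher and 0 lower. There Ccnd3, the third D-type cyclin, rose by 1.44 ± 0.07 (adjusted p = 7.27e-07), a rise beside that of Ccnd1 and the fall of Ccnd2, and Wee1, the kinase that inhibits CDK1, rose by 0.58 ± 0.07.

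The mitotic and replication lists were counted in the same way, against the same shares of all features. Further kinetochore, condensin and spindle genes had 16 of 43 higher and 2 lower, with a median of 0.15. Smc2, a condensin subunit, rose by 0.88 ± 0.07 and Sgo1, the protector of centromeric cohesin, by 0.69 ± 0.06, whereas Anln, the furrow scaffold anillin, differed by -0.64 ± 0.06 and Cit, citron kinase, by -0.22 ± 0.06. The call of Cit was lost without pair 1 or 2 (-0.18 and -0.22, adjusted p of 0.0989 and 0.0982), and among the 41 genes measured on all 8 arrays 14 were higher. Genes of replication origins, the fork and chromatin assembly had 2 of 39 higher and 1 lower, with a median of 0.051. That is 7.69% called, below the 24.4% of all features called in either direction. Uhrf1, which recruits maintenance methylation to new DNA, rose by 1.03 ± 0.09 (adjusted p = 4.18e-05) and Pole, a polymerase subunit, by 0.19 ± 0.06, while Orc6 of the origin recognition complex differed by -0.30 ± 0.06. The call of Pole was lost without any 1 pair (0.17, 0.21, 0.21 and 0.16, adjusted p of 0.131, 0.0987, 0.0618 and 0.129 without pairs 1 to 4). APC/C subunits had 2 of 15 higher (Anapc1, 0.27, and Cdc16, 0.23) and 1 lower (Fzr1, the G1 activator CDH1, at -0.24), near the shares of all features, and leaving out a pair gave 0 to 2 higher and 0 to 1 lower. Anapc1 did not pass without pair 1, 2 or 4 (0.24, 0.27 and 0.20, adjusted p of 0.116, 0.074 and 0.123), Cdc16 without pair 1 or 2 (0.21 and 0.23, adjusted p of 0.0627 and 0.0666), and Fzr1 without pair 1, 2 or 3 (-0.19, -0.25 and -0.24, adjusted p of 0.0933, 0.0556 and 0.0523). DNA damage checkpoint and recombination genes had 2 of 10 higher, Fanci at 0.51 and Exo1 at 0.49, and 0 lower. That is 20% called, where 24.4% of all features were called in either direction. Among the 8 genes measured on all 8 arrays, which leave out Chek1 and Fancd2, 2 were higher. Whether the lists differ from one another was not tested.

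**Figure D5:**
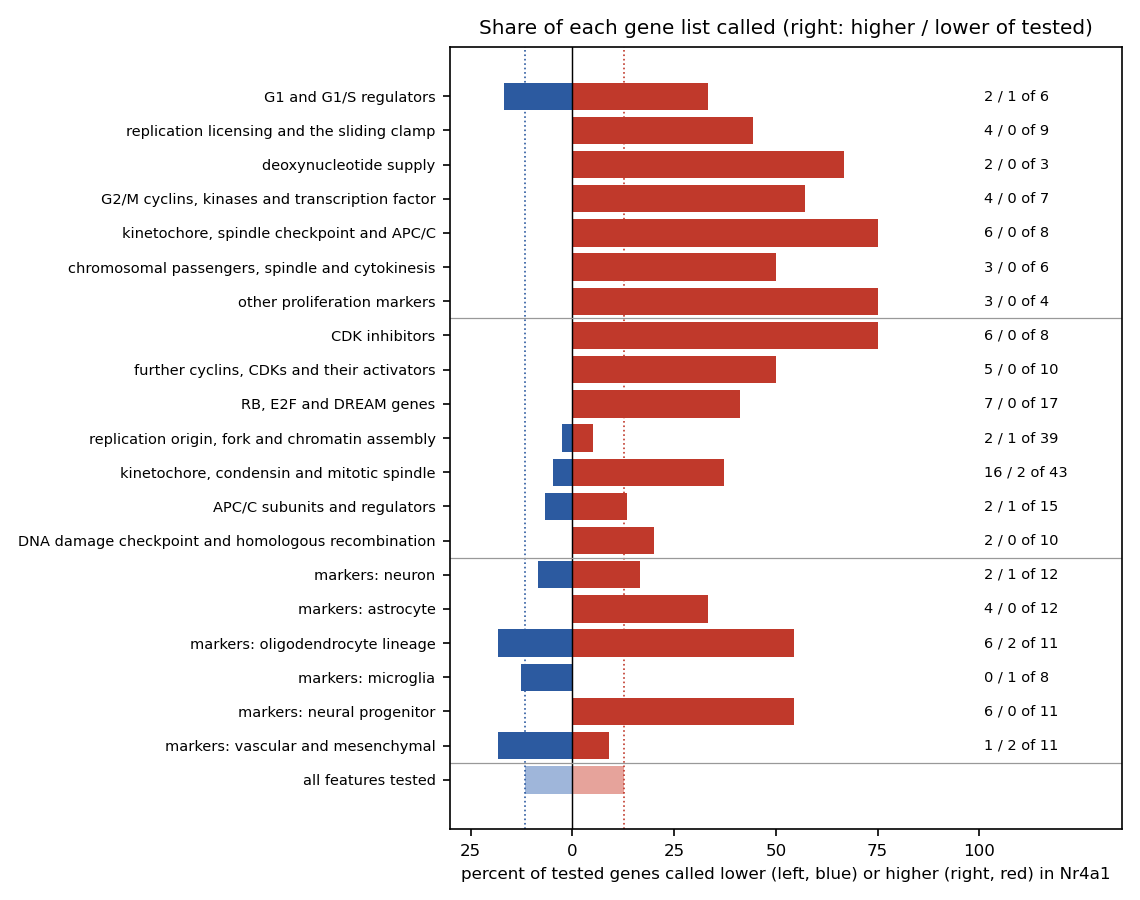
Percent of the tested genes of each list called higher (red, right) or lower (blue, left) in Nr4a1 cultures, with the counts at the right: the 7 phase lists of the cell cycle genes, 7 other cell cycle lists, 6 cell type marker lists and all features. Dotted lines mark the shares of all features, 12.8% and 11.5%; every phase list is past 12.8% on the higher side.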

How the data were processed

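Total RNA of 4 Nr4a1 and 4 GFP cultures was measured on 2-colour Agilent mouse arrays. The deposited scanner files hold Cy5 and Cy3 median signal and background intensity per spot, written by the software Agilent Feature Extraction (version 11.0.1.1, per the file headers), and a log10 ratio that the software computed before the authors deposited the files. The authors' deposited value table holds log2 ratios, whose scale and direction are not stated; its columns correlated with the ratios computed here at 0.998 to 1.00, with slopes of 0.992 to 1.01 and medians of 0.0240 to 0.0312, so its values were taken as log2 culture over reference. Limma is also named by the submitters' processing notes, without a version.

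Here R 4.3.3 and limma 3.58.1 were used: normexp (offset 50) on median signals minus background, leaving out spots of non-uniform background, then loess within arrays (span 0.3, controls at weight 0). Outlier-flagged spots were dropped, spots of a probe averaged, and probes entered the test with Cy5 well above background on 4 or more of 8 arrays and 3 or more values in each group. The brightest probe stood for a gene. lmFit and eBayes were fitted on all 21113 features with the pair tag as a block, and p-values were adjusted by Benjamini-Hochberg over all of them. A call is an adjusted p under 0.05. The pairing comes from the labels' pair tag; deviations of paired arrays from their group means correlated at -0.10, 0.28, -0.016 and 0.42 over features in pairs 1 to 4. Summed marker signals are Cy5 signals, quantile-normalised between arrays. Gene symbols, coordinates and promoter sequences are RefSeq's (GRCm38.p6), and 26581 of 39429 probes had a symbol.

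Per array, Cy5 was well above background for 60.9% to 69.2% of spots, and 0 were saturated. Arrays of a group correlated at 0.992 or more. Members and lists were chosen with earlier results of these data known. All 46 genes are named, with array values for Mki67, Top2a, Ccnb1, Rrm2, Pcna, Mcm2 and the 2 tested genes of largest absolute difference in each phase list; from each other list up to 2 called genes with the largest rise and up to 2 with the largest fall are named, except 1 gene that is not reported here. Ccnd2, Pdgfra, Nr4a1's level and single markers at 0 arrays are given besides; Ccnd2's array values, Pdgfra and Aurkb's array values were chosen after their values were seen.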

Additional observations from a re-analysis of the deposited data

Results flagged for a closer look

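In 3 of 86 groups of 4 arrays checked, 1 array stood apart from the other 3 by more than Dixon's 95% critical value, and chance flags about 1 group in 20. Rrm2 on Nr4a1 replicate 2 was the highest of its group at -2.78, with the others at -2.89 to -2.87. Ndc80 on Nr4a1 replicate 3 was the highest at -3.09, with the others at -3.27 to -3.24. Cdca3 on Nr4a1 replicate 1 was the lowest at -3.11, with the others at -2.97 to -2.95. All 3 values are log2 ratios to the reference.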

How the results depend on the processing

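As reported, 24 cell cycle genes were higher and 1 lower, and 2711 features were higher and 2434 lower. The mean of a gene's tested probes, in place of the brightest, gave 21 cell cycle genes higher and 1 lower. The median was then 0.18, and 2647 features were higher and 2491 lower. Cdk1 (0.050), Tpx2 (0.17) and Ube2c (0.18) lost their calls there. With all spots in the background correction 2 cell cycle genes were higher and 0 lower, with a median of 0.39, and 130 features were higher and 98 lower; the background term of Nr4a1 replicate 2 was then -299 in Cy5 and -551 in Cy3, against -3.33 and -5.05 as reported. An offset of 0 gave 1704 features higher and 1559 lower, and the software's own log ratio gave 1510 and 1350. Median centring in place of loess gave 3465 higher and 1264 lower, beside 2711 and 2434 as reported, and a median of 0.31 for the cell cycle genes. The median over all features was then 0.059, against -0.0034 as reported. Slide added as a random block to the pair term gave 0 cell cycle genes and 8 features higher, and 4 features lower. With no replicate block, the pairing left out, 24 cell cycle genes were higher and 0 lower. Ccnd2 was not called with all spots, offset 0, the software's ratio, median centring, no filter on dim probes, no replicate block, the batch tag as the block or slide as a random block, so 0 were lower there; the Cy5 channel alone gave 2 lower. Leaving out each pair in turn gave 17 to 23 cell cycle genes higher, 0 lower, medians of 0.19 to 0.27, and 1768 to 2592 features higher and 1616 to 2002 lower. All 24 genes called higher kept a positive difference in each setting in which they were tested. Nefm turned to -0.21 with all spots, -0.014 with offset 0 and -0.25 with the software's ratio, Aqp4 to -0.21 and -0.10 with all spots and the software's ratio, and Mag to 0.17 in Cy5 alone; the cause was not tested.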
